A study of Hydra vulgaris with 15 samples.

Results

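A set of 157 transcripts of the freshwater polyp Hydra vulgaris was abundant in the head, scarce in the body column, and lower in heads after RNA interference (RNAi) against the transcription factor Zic4. The members were taken from 79784 assembled transcripts (contigs) and were chosen by 3 limits on CPM, the count of a transcript divided by the total of its library and scaled to counts per 1e6. Each control head had to hold at least 5 CPM, the mean of the control heads had to be at least 4 times that of the control body columns, and the mean of the RNAi heads had to lie under 0.5 of the control head mean. The first pair of limits was met by 659 head-enriched transcripts, and the 157 members were 23.8% of these. The choice thus used the control heads, the RNAi heads and the control body columns, so all differences among these libraries are a description of how the members were chosen and carry no support. The RNAi body columns were not used in the choice.

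The design set Zic4 RNAi against control animals in 2 regions of the polyp. All animals were of the Basel1 strain, were starved for 4 days beforehand, were electroporated 4 times while intact, and gave RNA 1 day after the last time, with 20 polyps per condition. The groups were 4 control heads and 3 control body columns, which the labels call wild-type, and 4 heads and 4 body columns labelled Zic4 RNAi. The labels do not say which RNA, if any, the control animals received, and they give the source of every library as the whole animal while the tissue entry gives head or body column. Each library thus stands for pooled animals, and RNAi lowers a messenger RNA without changing the gene, to a degree that may vary between pools. The contig of Zic4 itself is not identified in the files, so the knockdown was not checked and the treatment rests on the labels alone.

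The Hydra head consists of the hypostome, a cone around the mouth that acts as an organizer, and a ring of tentacles below it. The outer epithelium of the tentacles is made of battery cells, which no longer divide and carry mounted stinging cells. Outer epithelial cells of the body column are displaced into the tentacles and change into battery cells there. Zic proteins are zinc finger transcription factors that act in many animals in the patterning of tissues. In RNA from whole tissue, fewer cells of a type and less RNA per cell cannot be told apart, and this holds for every loss described here.

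The files do not pair contig IDs with gene names, and 0 of the IDs were found in a RefSeq table of 28925 Hydra genes. No gene names, functions, marker genes or sequences are therefore given, and the head and body column labels were not checked against known markers. Most members are described by their rank, and an ID is printed only for those singled out.

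Library totals lay between 16020872 and 22554240 counts, so that 3 counts, taken as the floor of detection, stood for 0.133 to 0.187 CPM. The floor covers counting error only. All 157 members passed the filter on low counts, as did 31142 transcripts in all. In control heads 0 members lay at or under the floor, against 2 to 5 per RNAi head, 32 to 35 per control body column and 20 to 31 per RNAi body column.

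Their summed level was 6828, 6540, 7962 and 9736 CPM in control heads 1 to 4 and 2989, 2712, 2274 and 2570 CPM in RNAi heads 1 to 4. The 4 RNAi heads lay far below the 4 control heads, and the sum over the RNAi heads was 33.9% of that over the control heads. Control body columns 2 to 4 held 630, 595 and 679 CPM, and RNAi body columns 1 to 4 held 715, 760, 714 and 759 CPM. All RNAi heads were above all body columns. In percent of all counts, the members took 0.777% ± 0.145 of control heads (SD, n = 4), 0.264% ± 0.0298 of RNAi heads (SD, n = 4), 0.0635% ± 0.00424 of control body columns (SD, n = 3) and 0.0737% ± 0.00261 of RNAi body columns (SD, n = 4). The sum was uneven, since the most abundant member gave 12.8% of it in control heads and the 10 most abundant gave 47.2%. Without the most abundant one, 37.3% of the summed level was left in RNAi heads.

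**Figure D1:**
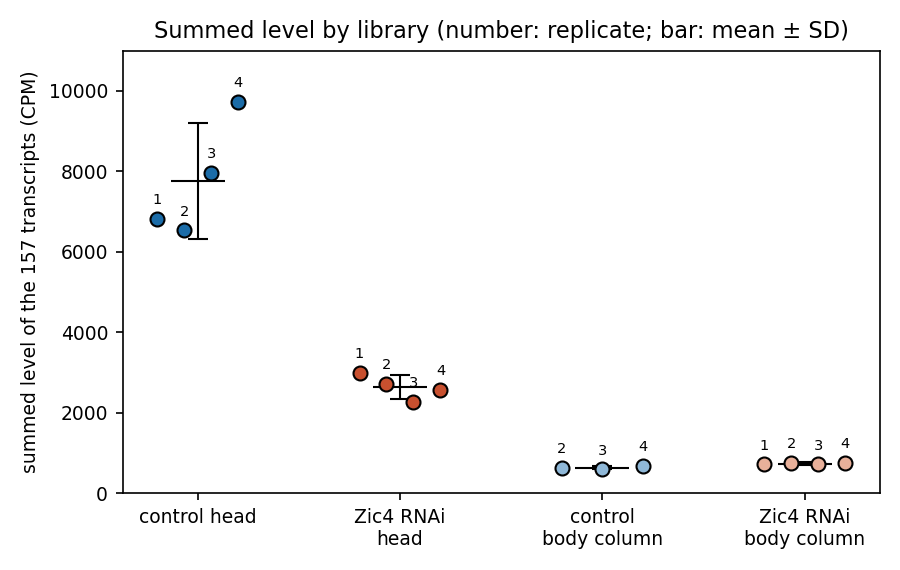
Summed level of the 157 transcripts in each of the 15 libraries, in CPM. Points are libraries with their replicate number, and bars give the mean and SD of each group. RNAi heads lie at 2274 to 2989 CPM, between control heads at 6540 to 9736 CPM and body columns at 595 to 760 CPM.

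Single members kept between 3.08% and 49.9% of their control head level in RNAi heads, with a median of 41.5% and quartiles at 27.1% and 46.7%. Many members sat close to the limit: 83 members kept 40% or more, 45 kept between 20% and 40%, and 29 kept under 20%. The 2 members just inside the limit kept 49.8% and 49.9%, and the 2 head-enriched transcripts just outside it kept 50.02% and 50.04%, so the boundary does not separate distinct groups. Scaling moved members across it. With TMM, a scaling that takes account of library composition, 110 of the 157 stayed under the limit, and the median level left was 44.7%.

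**Figure D2:**
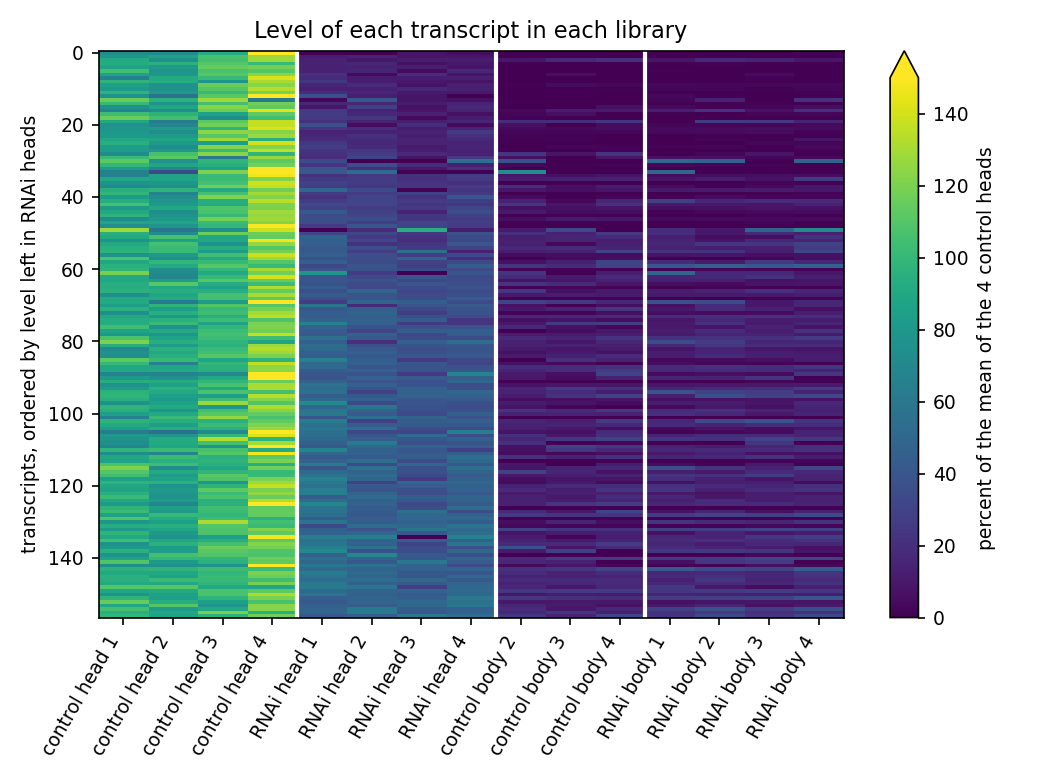
Level of each of the 157 transcripts (rows, ordered by the level left in RNAi heads) in each of the 15 libraries (columns), in percent of the mean of the 4 control heads, with colours capped at 150%. Control head 4 is the brightest column, RNAi heads are darker in nearly every row, and the upper rows, with the deepest loss, are also the darkest in body columns.

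The most abundant member, GGKF01017007.1, had 789, 855, 1062 and 1265 CPM in control heads 1 to 4 and 116, 145, 75.9 and 90.0 CPM in RNAi heads 1 to 4. Every RNAi head was far below every control head, and 10.7% of the control level was left. Body columns held little of it, with 0.811, 2.74 and 1.83 CPM in controls 2 to 4 and 0.709, 0.352, 0.914 and 0.874 CPM in RNAi body columns 1 to 4. Its level in RNAi heads was still 150-fold that in RNAi body columns. The body column values overlapped between treatments and did not pass the test (edgeR BH adjusted p = 0.219).

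The deepest loss was that of GGKF01054028.1, a much rarer transcript. Control heads 1 to 4 held 6.19, 6.05, 7.72 and 13.3 CPM, whereas RNAi heads 1 and 2 were listed at 0 and RNAi heads 3 and 4 held 0.633 and 0.391 CPM. The level left was 3.08%. Of the 7 body columns, 6 were listed at 0, and RNAi body column 4 held 0.132 CPM, which is under the floor. An exact 0 can be a failed estimate, and 7 members were listed at 0 in at least 1 RNAi head.

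The other abundant members lost less. The second most abundant had 642, 506, 665 and 838 CPM in control heads 1 to 4 and 237, 208, 162 and 197 CPM in RNAi heads 1 to 4, a level left of 30.3%. The third had 301, 314, 406 and 538 CPM in control heads and 175, 138, 107 and 129 CPM in RNAi heads, a level left of 35.2%. Neither pair of groups overlapped. The fourth and the fifth were near the limit, with 48.8% and 49.4% left: their RNAi heads held 145 to 208 CPM and 100.03 to 137 CPM, against 313 to 418 CPM and 179 to 306 CPM in control heads. The sixth kept 38.5%. Next to GGKF01054028.1 and GGKF01017007.1, the deepest losses were those of a transcript that averaged 20.3 CPM in control heads and kept 11.4%, and of one that averaged 27.5 CPM and kept 11.8%.

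The loss was shared by the RNAi heads to different degrees. Of the 157 members, 102 lay under 0.5 of the control head mean in RNAi head 1, 137 in RNAi head 2, 147 in RNAi head 3 and 135 in RNAi head 4. In 77 members all 4 RNAi heads were under it, in 55 it was 3 heads, in 23 it was 2 and in 2 it was 1. RNAi head 1 thus kept more than the others, with a median of 44.5% of the control level against 34.7% in RNAi head 3. For 152 members the 4 RNAi heads lay below all 4 control heads, which was the case for 10% of all transcripts tested. The rule used these libraries, so nothing is read from that difference.

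The 5 members whose heads overlapped were singled out after their values were seen, and their spread was wide. GGKF01012644.1 and GGKF01070003.1 had 1 high control head, replicate 4, at 43.1 and 33.7 CPM, while their other control heads held 14.7 to 15.5 and 8.87 to 11.5 CPM. GGKF01013137.1 was listed at 0 in RNAi heads 3 and 4 and also in 5 of the 7 body columns. GGKF01029784.1 was listed at 0 in RNAi head 1 but held 9.22 CPM in RNAi head 3, and GGKF01073554.1 held 9.82 CPM in RNAi head 1 and was listed at 0 in RNAi head 3. In each of these transcripts the mean rests on libraries that lie far apart.

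Across all tested transcripts, the comparison of RNAi with control heads called 657 as lower, or 2.11%, by the quasi-likelihood test of edgeR at an adjusted p below 0.05, and 101 of the 157 members were among them. The other 56 members met the limit on the mean but did not pass the test. They were the rarer ones, with a median of 10.7 CPM in control heads against 26.6 CPM for the 101. Of the 37 members with under 10 CPM in control heads, 12 were called, and of the 21 with at least 100 CPM, 20 were called. GGKF01017007.1 had a log2 fold change of −3.09 (SE 0.25, adjusted p = 2.81e-05 by edgeR), and GGKF01054028.1 one of −4.85 (SE 1.06, adjusted p = 0.0224 by edgeR). The latter did not pass by edgeR without control head 4 (adjusted p = 0.076) or without RNAi head 4 (adjusted p = 0.0524). The rule chose members for low levels in these RNAi heads, and GGKF01054028.1 was then picked for its depth of loss. These counts and p-values are therefore a description, and no support is read from them.

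Loss was also measured in left-out heads, on transcripts chosen anew each time and not on the list of members. One control head and 1 RNAi head were left out together, and transcripts were chosen with the remaining libraries by the same limits. The left-out RNAi head was then divided by the left-out control head. All choices shared the control body columns and most heads, and the comparisons were chosen with earlier results of these data known. The values are therefore a description and not an independent test. Over the 16 possible pairs, which share libraries, 113 to 220 transcripts were chosen, and the median level left in the left-out heads was 43.3%, with a range from 25.2% to 59.8%. Between 92.4% and 99.2% of the chosen transcripts were lower in the left-out RNAi head. The same ratio had a median between 61.9% and 80.9% over all head-enriched transcripts and between 85.2% and 103% over all transcripts with at least 5 CPM in each control head. The size of the loss depended on the library. With control head 4 left out the medians were 25.2% to 36.9%, with control head 2 left out they were 44.4% to 59.8%, and the share of transcripts under 0.5 in the left-out pair ran from 31.4% to 88.5%.

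Control head 4 held the highest level among the 4 control heads for 125 of the 157 members, or 79.6%. It was the highest for 43.5% of the 12172 transcripts with at least 5 CPM in each control head, and for 24.6% of the 203 head-enriched transcripts that kept 0.8 or more of their level. Control heads 1 and 2 were the lowest for 51 and 83 members. Members were therefore not equally high in all control heads, and their summed level differed 1.49-fold between control heads 2 and 4. Without control head 4 the rule chose 120 transcripts, and without control head 2 it chose 199. The part of this library in the size of the loss was not tested beyond these values.

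For most members the mean of the RNAi heads stayed above that of the RNAi body columns. The median member had 9.63 times as much in control heads as in control body columns and 3.51 times as much in RNAi heads as in RNAi body columns. For 132 members each RNAi head lay above each RNAi body column, and 71 members still had at least 4 times as much in RNAi heads. At least 2 times as much was held by 126 members, 1 to 2 times by 26, and less than in RNAi body columns by 5. The share of all transcripts with such values was not counted, so these counts only describe the members. The edgeR fold change of head over body column in RNAi animals was above 0 for 96.2% of members, against 51.0% of all transcripts tested. For the 203 head-enriched transcripts that kept 0.8 or more of their level the share was 98.5%. The test of head against body column in RNAi animals called 125 members as higher in the head by the same test and threshold, against 13.1% of all transcripts tested. The rule had chosen low values in RNAi heads and high enrichment in control heads, which bear on this count in opposite directions, so nothing is read from it. In control animals, where the rule used both tissues, 152 members were called, against 14.6% of all transcripts.

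The excess of head over body column is a second description of the same libraries. In control animals this excess was the mean of the heads minus the mean of the body columns, and in RNAi animals it was the same difference between their tissues. A median of 29.1% of the excess was left after RNAi, with quartiles at 17.8% and 36.6%. Where the body column level is similar in both treatments, this value lies below the level left by construction. For 5 members none was left, and the RNAi head mean lay below the RNAi body column mean. They were GGKF01007176.1 and, named after their values were seen, GGKF01027771.1, GGKF01028320.1, GGKF01028321.1 and GGKF01029784.1. Head over body column was lowest in GGKF01027771.1, at 0.615, and was 0.813 in GGKF01007176.1. In none of the 5 did all RNAi heads lie below all RNAi body columns, and 0 of the 157 members were called lower in the head of RNAi animals (edgeR), against 12.5% of all transcripts.

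**Figure D3:**
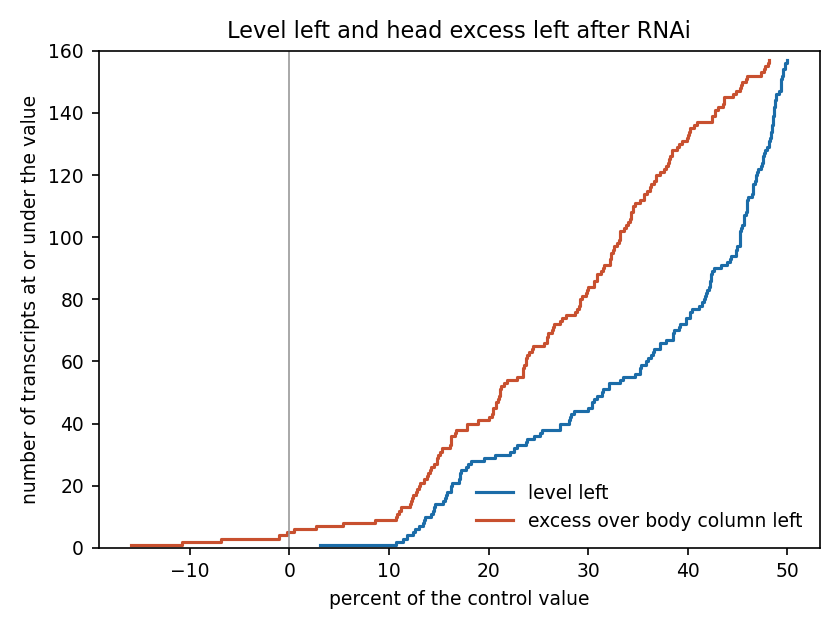
Number of the 157 transcripts (vertical axis) at or under a given percent of the control value (horizontal axis) in RNAi animals. The blue line gives the level left in heads, with a median of 41.5%, and the red line the excess of head over body column left, with a median of 29.1% and 5 transcripts at or below 0.

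Members with the deepest loss were scarce in the body column. Among the 29 that kept under 20%, the median level in RNAi body columns, which the rule did not use, was 0.272 CPM, and 25 of them lay under 1 CPM. Among the 45 that kept between 20% and 40% the median was 1.76 CPM and 16 lay under 1 CPM. The 83 that kept 40% or more had a median of 2.49 CPM, and 15 lay under 1 CPM. The levels in control heads did not follow this order, with medians of 20.3, 15.3 and 18.0 CPM. Where RNAi heads stay at or above RNAi body columns, the body column level also bounds the depth of the loss by arithmetic. These are values across transcripts that share the same libraries, and no test was made of them.

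**Figure D4:**
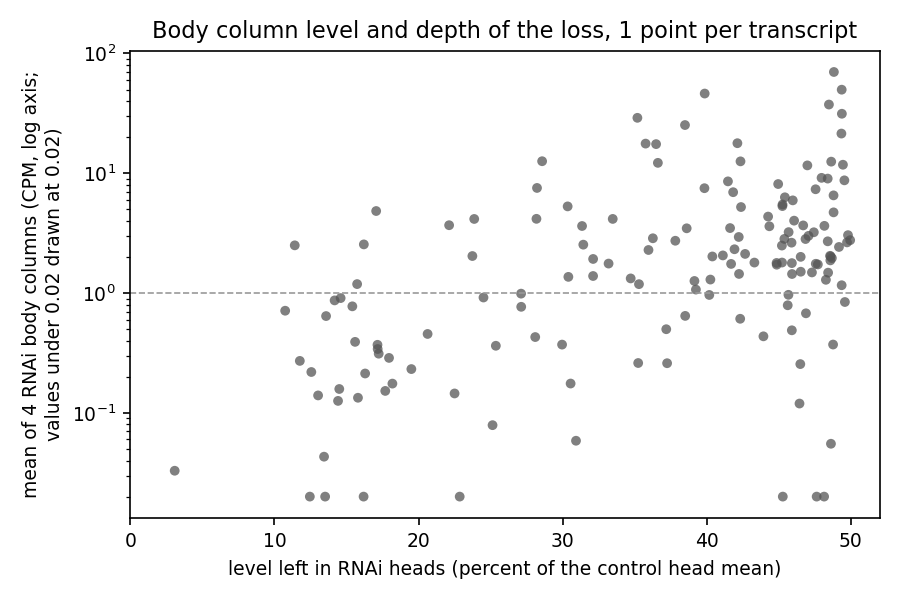
Level left in RNAi heads, in percent of the control head mean (horizontal axis), against the mean of the 4 RNAi body columns in CPM on a log axis (vertical axis), with 1 point for each of the 157 transcripts. Of the 29 points under 20%, 25 lie below the dashed line at 1 CPM, against 15 of the 83 points at 40% or more.

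Members came from all classes of head enrichment. Of the 349 head-enriched transcripts with 4 to 8 times as much in control heads as in control body columns, 68 were members, or 19.5%. The share was 29.5% of 122 transcripts at 8 to 16 times, 25.3% of 83 at 16 to 64 times and 30.5% of 105 at 64 times or more. Where members came from these classes their level left differed, with medians of 45.3%, 43.8%, 35.2% and 17.8%. Over all head-enriched transcripts of the classes the medians were 67.6%, 62.8%, 77.7% and 71.3%, without such an order. Enrichment and level left both contain the control heads, so these values stand side by side without a test. In 19 members all control body columns lay at or under the floor, 11 were listed at 0 in all 3, and 6 were listed at 0 in all 7 body columns.

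In the comparison of body columns, the RNAi libraries lay outside the rule and the control libraries did not. The limit on enrichment favoured low values in control body columns, so calls, signs and non-overlaps lean towards higher levels after RNAi. By edgeR few members were called different between RNAi and control body columns. In a single simulated run this test recovered 25.7% of transcripts changed by 1 on the log2 scale, so changes can be missed. The changed transcripts were picked at random and set at their mean level over all 15 libraries, heads included. Members lay lower than that in body columns, so the share that would be recovered among members was not measured. Of the 157, 4 were called higher after RNAi by edgeR, or 2.55%, against 1.51% of all transcripts tested. By edgeR 0 were called lower, against 0.543% of all transcripts. At an unadjusted p under 0.05 by edgeR, 32 members (20.4%) were higher and 8 (5.1%) lower, against 9.85% and 6.94% of all transcripts. The DESeq2 Wald test called 18 (11.5%) higher and 4 (2.55%) lower after adjustment, against 5.1% and 2.93%. The edgeR count was 0 with body columns fitted alone, 1 without control body column 2 or 3 or with library size alone as scaling, and 2 without RNAi body column 1 or 2 or without a filter. The median log2 fold change of the members was 0.20, with quartiles at −0.22 and 0.64, and that of all tested transcripts was 0.011. In 95 members the RNAi mean was the higher one, in 56 the lower one and in 6 both were 0. The edgeR fold change was above 0 in 64.3% of members, against 51.1% of all transcripts tested. It was above 0 in 67.2% of the head-enriched transcripts with 0.5 to 0.8 of their head level left. With 0.8 or more left the share was 58.1%, so this lean was not particular to the members. All 4 RNAi body columns lay above all 3 control body columns in 21 members, or 13.4%, against 5.87% of all transcripts, and below them in 5, against 9.12%.

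The 4 called members had 4.00, 4.21, 6.61 and 7.47 times as much in control heads as in control body columns. GGKF01007176.1 had 9.39, 7.09 and 12.2 CPM in control body columns 2 to 4 and 16.7, 18.5, 16.6 and 19.0 CPM in RNAi body columns 1 to 4. The groups were apart, with a log2 fold change of 0.96 (SE 0.17, adjusted p = 0.0171 by edgeR). In heads the same transcript went the other way, from 38.7, 37.0, 44.5 and 40.8 CPM in controls 1 to 4 to 13.0, 15.7, 11.2 and 17.7 CPM after RNAi. Its levels in RNAi heads and RNAi body columns overlapped. The body column call was lost without control body column 2 (adjusted p = 0.0511) or 3 (adjusted p = 0.0789) and with body columns fitted alone (adjusted p = 0.0621).

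GGKF01017742.1 rose from 27.0, 20.9 and 28.5 CPM in control body columns 2 to 4 to 34.5, 39.3, 34.1 and 42.0 CPM in RNAi body columns 1 to 4. Every RNAi value was above every control value, with a log2 fold change of 0.62 (SE 0.11, adjusted p = 0.0175 by edgeR). In heads it had 170 to 213 CPM in controls and 82.7 to 107 CPM after RNAi. Its body column call was lost without control body column 3 (adjusted p = 0.0825), with body columns fitted alone (adjusted p = 0.0744) and with library size alone as scaling (adjusted p = 0.0677). The other 2 called members, GGKF01018078.1 and GGKF01035823.1, are named because the count is small. GGKF01018078.1 averaged 1.25 ± 0.401 CPM in 3 control and 2.65 ± 0.446 CPM in 4 RNAi body columns (SD; adjusted p = 0.0348 by edgeR). GGKF01035823.1 averaged 4.38 ± 0.916 CPM in the former and 6.54 ± 1.10 CPM in the latter (SD; adjusted p = 0.042 by edgeR). Out of 13 alternative settings, 3 kept the call of the former and 4 that of the latter. The treatments overlapped in GGKF01035823.1, at 5.40 CPM in the lowest RNAi and 5.42 CPM in the highest control body column.

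**Figure D5:**
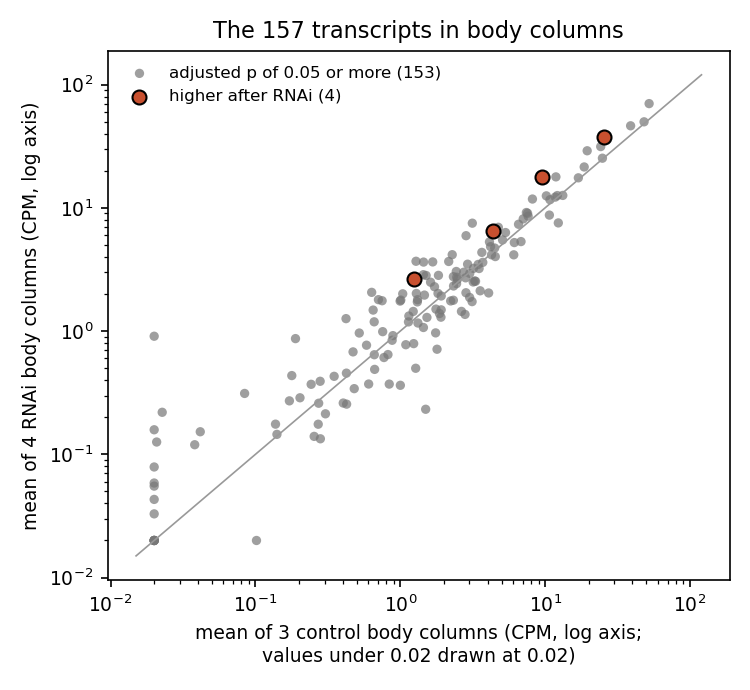
Mean level of each of the 157 transcripts in 3 control body columns (horizontal axis) and 4 RNAi body columns (vertical axis), both in CPM on log axes, with means under 0.02 drawn at 0.02. The line marks equal levels. Most points scatter about it, and the 4 red points are the transcripts called higher after RNAi.

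The member most abundant in the body column after RNAi was also the fourth most abundant in control heads. It held 52.5, 49.4 and 54.7 CPM in control body columns 2 to 4 and 66.7, 75.5, 60.1 and 77.9 CPM in RNAi body columns 1 to 4. All RNAi values were the higher ones, but the call was missed (log2 fold change 0.49, SE 0.12, adjusted p = 0.0544 by edgeR). The second and the third in that order averaged 48.2 ± 1.29 and 38.9 ± 1.85 CPM over 3 control libraries, and 49.9 ± 3.87 and 46.3 ± 1.95 CPM over 4 RNAi libraries (SD; adjusted p = 0.6 and 0.311 by edgeR). GGKF01017742.1 was the fourth.

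By the interaction term of edgeR, 52 members had a more negative RNAi effect in heads than in body columns, against 1.07% of all transcripts tested. The DESeq2 Wald test called 92, and edgeR with the replicate number as a block called 34. Shares over all transcripts were not counted for these 2 settings, and the 1.07% is not their measure. In edgeR the effect was more positive in heads for 0 members, against 0.501%. The heads and the control body columns of this contrast were used by the rule, so the count is a description. The median difference between the effects was −1.49 on the log2 scale over the members and −0.032 over all transcripts. For GGKF01007176.1 the difference was −2.32 (SE 0.23) and for GGKF01017742.1 it was −1.55 (SE 0.15), with an adjusted p of 0.000327 by edgeR for both. For GGKF01017007.1 it was −1.80 (SE 0.59) and not called (adjusted p = 0.178 by edgeR). Both GGKF01007176.1 and GGKF01017742.1 were named for their p in body columns, so nothing is read from their p-values here.

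The body column values of other head-enriched transcripts are given beside those of the members. The 203 that kept 0.8 or more of their head level had a median log2 fold change of 0.14 in body columns, with 4 called higher and 1 lower, and the 299 between the limits had 0.23, with 11 higher and 5 lower. The members had 0.20, with 4 and 0. All were tested in the same fit, and the difference between the lists was not tested. The kept transcripts were more abundant in control heads, with a median of 30.1 CPM against 17.5 CPM for the members, and varied less between control heads, with a median coefficient of variation of 12.1% against 19.7%. Their enrichment over control body columns had a median of 10.3-fold, against 9.63-fold for the members.

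Some members may be related contigs. Neighbouring contig numbers were used as a hint of related contigs, by a limit of 5 chosen after the values were seen. By it, 50 members lay in 19 stretches with at least 1 other member and 107 stood alone, so the set came to 126 units. Of the 203 kept transcripts 36.5% lay in such stretches of their own, against 31.8% of the members. The largest stretch ran from GGKF01014004.1 to GGKF01014010.1 and held 5 members in 7 contigs, which kept between 35.2% and 42.1% of their level. Its contigs summed to 939 CPM in control heads and 357 CPM in RNAi heads, and the contigs in it that are not members were at or near 0. Within a stretch the level left differed by a median of 6.70 percentage points.

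Summing all contigs of a stretch guards against reads that are divided between similar contigs. Of the 19 stretches, 15 still met the limits on head enrichment and loss as sums, with a median of 38.0% left over all 19. The other 4 did not. The stretch that holds the second most abundant member summed to 2518 CPM in control heads and 1705 CPM in RNAi heads, and 67.7% was left. Members made up 690 CPM of that sum in control heads. The stretches that begin with GGKF01078065.1, GGKF01073552.1 and GGKF01059252.1, named after their values were seen, kept 59.3%, 57.0% and 36.2% as sums. Of the 4, 3 lay under the limit on head enrichment as sums, at 3.85-fold for the stretch of the second most abundant member, 3.01-fold for that of GGKF01073552.1 and 2.34-fold for that of GGKF01059252.1. Whether the contigs of a stretch come from 1 gene was not tested.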

How the data were processed

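RNA from heads and body columns was sequenced from stranded mRNA libraries, per the labels' protocols. The deposited table held expected counts per contig, not scaled to a common total, and 74.2% of the nonzero values were not whole. Salmon, without a version, and DESeq2 1.26.0 are named in the submitters' processing notes. Such programs divide reads between similar contigs. The assembly and the settings are not given in the sources used here.

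Libraries were grouped by title. CPM were counts over the column sum. For tests, counts were rounded, which moved a total by at most 145, filtered with filterByExpr, scaled with TMM factors and fitted with edgeR 4.0.16 (R 4.3.3; quasi-likelihood test, 1 mean for each of the 4 groups, all 15 libraries), with Benjamini-Hochberg (BH) adjustment over 31142 transcripts. SEs came from the fold change and its F statistic. DESeq2 1.42.0, other scalings, no filter, a replicate block, body columns alone, libraries left out and other limits were alternatives. In a single simulated run, with each transcript at its mean level over all 15 libraries, the fit recovered 25.7% of those changed by 1 on the log2 scale. Of its calls, 2.08% were false. The run was not set at the body column level of the members. Labels do not say that replicates came from separate cultures, so p-values measure the spread between these libraries, which may be technical.

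The members and comparisons were chosen with earlier results of these data known. IDs printed by rule were the most abundant member, the one with the deepest loss, and up to 2 members in each direction with the smallest p in body columns. Members were otherwise described by rank.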

Additional observations from a re-analysis of the deposited data

Results flagged for a closer look

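A library stood apart from the others of its group in 2 of 60 groups of 4 libraries looked at. Chance picks out about 1 in 20 groups only where values are not tied. In both groups flagged here the other libraries were tied, so that rate does not apply to them. RNAi body column 4 held 0.132 CPM of GGKF01054028.1 where the other RNAi body columns were listed at 0, which is under the floor. RNAi head 3 had 4 members listed at 0, against 2 in each other RNAi head.

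The edgeR interaction test (BH adjusted) called a different RNAi effect in head and body column for 13 of the 17 members described one by one. These 17 were picked by abundance, depth of loss, place at the limit or a call in body columns. Over all 157 members 52 were called, and 1.07% of all transcripts were called more negative in heads. The rule used the heads and the control body columns of this contrast. Members picked by a call in body columns were all higher there after RNAi. Both choices favoured a negative sign, so these calls and p-values are a description and no support is read from them. The sign was negative for 154 of all 157 members and positive for 3. On the log2 scale, the effect in the head minus that in the body column was −2.32 for GGKF01007176.1, −1.55 for GGKF01017742.1, −2.02 for GGKF01018078.1 and −1.56 for GGKF01035823.1. For the second to the sixth most abundant members it was −2.02, −2.02, −1.40, −1.34 and −1.34. For the third and the fourth by depth of loss it was −2.72 and −3.59, and for the second and the third by level in RNAi body columns it was −1.01 and −1.51. Adjusted p-values by the edgeR interaction test ran from 0.000327 to 0.0241.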

How the results depend on the processing

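The number of members called in body columns was unstable. It was 4 with DESeq2 size factors, as with TMM, 1 with library size alone, 2 without a filter, 22 with the DESeq2 Wald test (18 higher, against 5.1% of all transcripts, and 4 lower, against 2.93%) and 0 with body columns alone, where 119 members could be tested. Without 1 body column it ranged from 1 to 6, and it was 1 without control body column 2 or 3 and 2 without RNAi body column 1 or 2. With the replicate block it was 2, and the interaction count was 34 instead of 52. DESeq2 gave 92 for the interaction count. Shares over all transcripts were not counted for the 34 and the 92. Same-numbered libraries did not deviate together (r between −0.036 and 0.040 across transcripts), so the numbers were not taken as pairs. Calls in heads ranged from 77 to 135 over the alternatives, calls of head over body column from 120 to 132 after RNAi and from 148 to 152 in controls. Apart from the DESeq2 Wald test in body columns, shares over all transcripts were not counted under the alternatives. These counts and ranges therefore only describe the members.

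The rule chose 99 transcripts with at least 10 CPM in each control head, 89 with at least 8-fold enrichment and 36 with under 0.25 left, against 105 and 106 with TMM and DESeq2 size factors and 122 with neighbouring contigs summed. Leaving out 1 library gave 120 to 199. Over the transcripts chosen anew under each setting, all under the limit by choice, the median level left was 36.5% with TMM, 37.3% with DESeq2 size factors, 36.0% at 8-fold and 15.99% at 0.25, and it ranged from 38.3% to 41.7% without 1 library. Over the original 157 members it was 44.7% with TMM, against 41.5% as CPM. Library size alone moved the median log2 change of all transcripts in heads from −0.020 to −0.14. With TMM the left-out heads kept 40.3%. Depth limits the rarer members: 20 to 35 lay at or under the floor in each body column, where a lower level could not be measured.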
